A study of Mus musculus with 48 samples.

Results

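The effect of PPARγ knock down (KD) on gene expression was followed on day 2 of adipocyte differentiation, by comparing 3 arrays of 3T3-L1 cells treated with PPARγ siRNA and 3 arrays of cells treated with control siRNA, paired by replicate number, across all 24613 probes of an Illumina MouseRef-8 array. These are 6 of the 48 arrays of a time course that covered both siRNAs on day −2 and on days 0 to 6, with 3 independent biological replicates of each. 3T3-L1 is an established mouse cell line of fibroblast-like preadipocytes that turn into fat cells under hormones. Cells of both groups were transfected at 50 nM, either with a pool of siRNAs against Pparg or with a pool of non-targeting siRNAs. Once confluent, both were given dexamethasone (0.25 µM) with IBMX (0.5 mM) over 48 h, followed by a further 48 h of insulin (5 µg/ml) with rosiglitazone (1 µM). Days are counted from the rosiglitazone step, so that by this schedule day 2 lies at the end of the treatment with insulin and rosiglitazone, and the PPARγ agonist was present under both siRNAs. The values describe whole cultures of a single cell line under a transient and partial knock down, and fewer cells of a type and less RNA per cell cannot be told apart in them.

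PPARγ is a nuclear receptor that binds DNA as a heterodimer with RXR and drives the genes by which an adipocyte takes up, stores and releases fatty acids. In 3T3-L1 cells C/EBPβ and C/EBPδ act early, and PPARγ and C/EBPα then keep each other and the adipocyte program switched on while genes of the fibroblast state are turned down. Rosiglitazone is a synthetic PPARγ ligand. The terms induced and repressed by PPARγ stand here only for the sign of a difference, negative and positive, between PPARγ KD and control siRNA.

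Levels are log2 signals after background correction and scaling of the arrays, and differences are PPARγ KD minus control siRNA on that scale. A probe was called at a limma adjusted p of at most 0.05 (Bonferroni, over 24613 probes), and it was counted as above background on an array at a detection p under 0.01. Between 33.5% and 39.6% of the probes were above background on the 6 arrays. Both replicate 3 arrays had the lowest shares of their groups, 33.5% for the control siRNA and 34.2% for the PPARγ KD. The differences within pairs 1, 2 and 3 correlated across probes at 0.807 for pairs 1 and 2, 0.756 for pairs 1 and 3 and 0.731 for pairs 2 and 3. These correlations run across probes, which are not independent replicates.

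The targeted gene was read by 3 probes. Pparg probe 6130632 was at 11.68, 11.32 and 11.70 on the control siRNA arrays of replicates 1, 2 and 3, and at 9.61, 9.65 and 9.66 on the PPARγ KD arrays. All PPARγ KD arrays lay below all control siRNA arrays, and the signal was 3.80-fold lower (log2 difference −1.93, SE 0.11, limma's adjusted p = 1.02e-14). Probe 1990168 differed by −2.33 (adjusted p = 1.07e-10) and was above background on 3 control siRNA arrays and 2 PPARγ KD arrays. The third, probe 2680603, was above background on 0 of 6 arrays. The transcript was therefore reduced and not removed, and it stayed above background in the PPARγ KD on probe 6130632.

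Across the array, 2195 probes under 1964 gene symbols were called, which is 8.92% of the probes. Of these, 1029 (46.9% of the calls, 4.18% of all probes) were induced and 1166 (53.1% and 4.74%) were repressed by PPARγ. Every called probe moved the same way in all 3 pairs, but the calls rest on the same arrays, so this is not added evidence. The median difference of the called probes was −0.84 among the induced and 0.87 among the repressed. Among called probes above background on all 6 arrays, 35 induced and 6 repressed ones were past 4-fold, and 10 and 0 were past 8-fold. A further 66 called probes were above background on all 3 control siRNA arrays and on 0 PPARγ KD arrays, and 83 showed the reverse. There were also 29 called probes that were above background on 0 of 6 arrays. The median difference over all 24613 probes was −0.12, that over the 7770 probes above background on all 6 arrays was −0.0026, and quantile normalization moved the former to −0.0015. The count moved with the design of the fit: it was 989 without replicate 1, 1042 without replicate 2, 1655 without replicate 3 and 1113 with all replicates but no block.

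**Figure D1:**
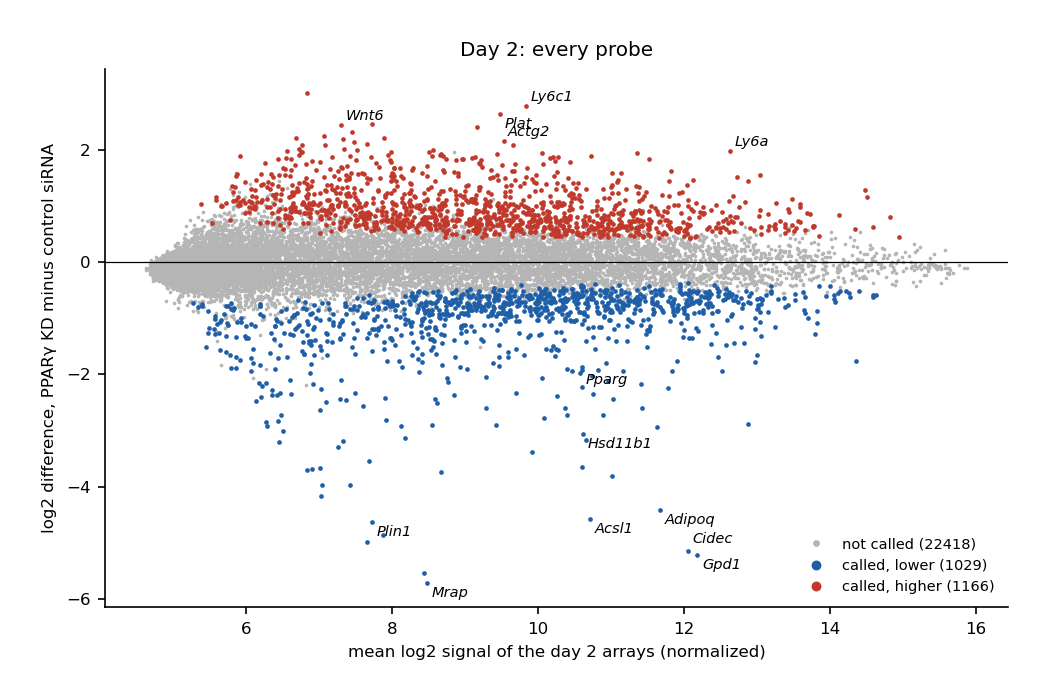
Log2 difference between PPARγ KD and control siRNA on day 2 (vertical axis) against the mean log2 signal of the day 2 arrays (horizontal axis), 1 point per probe. Blue points are the 1029 called probes that were lower, red points the 1166 that were higher and grey points the probes that were not called. Among the genes above background on all 6 arrays the falls reach −5.21 (Gpd1) and the rises 2.78 (Ly6c1). For genes at background under 1 siRNA, such as Mrap (fitted difference −5.71), only the smaller bound given in the text holds.

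Genes with several probes are given by the brightest probe from here on, which leaves 18750 symbols. Of these, 4.49% were called lower and 5.59% higher, with a median difference of −0.11. Among the 7500 brightest symbols, to which most of the metabolic genes belong, 10.1% were called lower and 13.5% higher, with a median of 0.05. Counts over gene lists are set against these shares, and a list whose share is close to them is not singled out by its count.

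Among genes above background on all 6 arrays, the 10 largest falls were those of Gpd1, Cidec, Acsl1, Adipoq, G0s2, Gpat3, Dgat2, Agpat2, Hsd11b1 and Arxes2, with differences from −5.21 to −2.94. Of these, 4 take part in making glycerolipids. Gpd1, which makes glycerol 3-phosphate, was at 14.83, 14.72 and 14.83 under control siRNA and at 9.39, 9.35 and 10.01 in the PPARγ KD. The fall of Gpd1 was 37.1-fold (−5.21, SE 0.14, adjusted p = 9.50e-27), and the groups did not overlap. Cidec, a protein of the lipid droplet surface that promotes the fusion of droplets, was at 14.83, 14.66 and 14.38 under control siRNA and at 9.30, 9.41 and 9.73 in the PPARγ KD, a 35.4-fold fall (SE 0.22 on the log2 scale, adjusted p = 1.14e-19). Hsd11b1, which regenerates active glucocorticoid, fell by 3.07 (SE 0.11, adjusted p = 8.71e-23), and Arxes2 fell by 2.94 (SE 0.09, adjusted p = 2.34e-24).

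The highest bounds belong to genes that were not above background on any PPARγ KD array. For such genes the fold is given as a lower bound, the mean of the bright group over that of the dim group, in which each array counts with its lowest signal above background or, if larger, with the signal of the gene's probe. Mrap, the accessory protein of melanocortin receptors, was at 11.44, 11.39 and 11.19 under control siRNA and not above background in the PPARγ KD, and it was at least 29.2-fold lower (adjusted p = 3.10e-21). The probe BC054059 was at least 26.7-fold lower, Ppp1r1a, an inhibitor subunit of protein phosphatase 1, at least 14.3-fold, the carboxylesterase CES3 at least 12.8-fold and Plin1, the perilipin that guards the droplet against lipases, at least 11.9-fold.

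**Figure D2:**
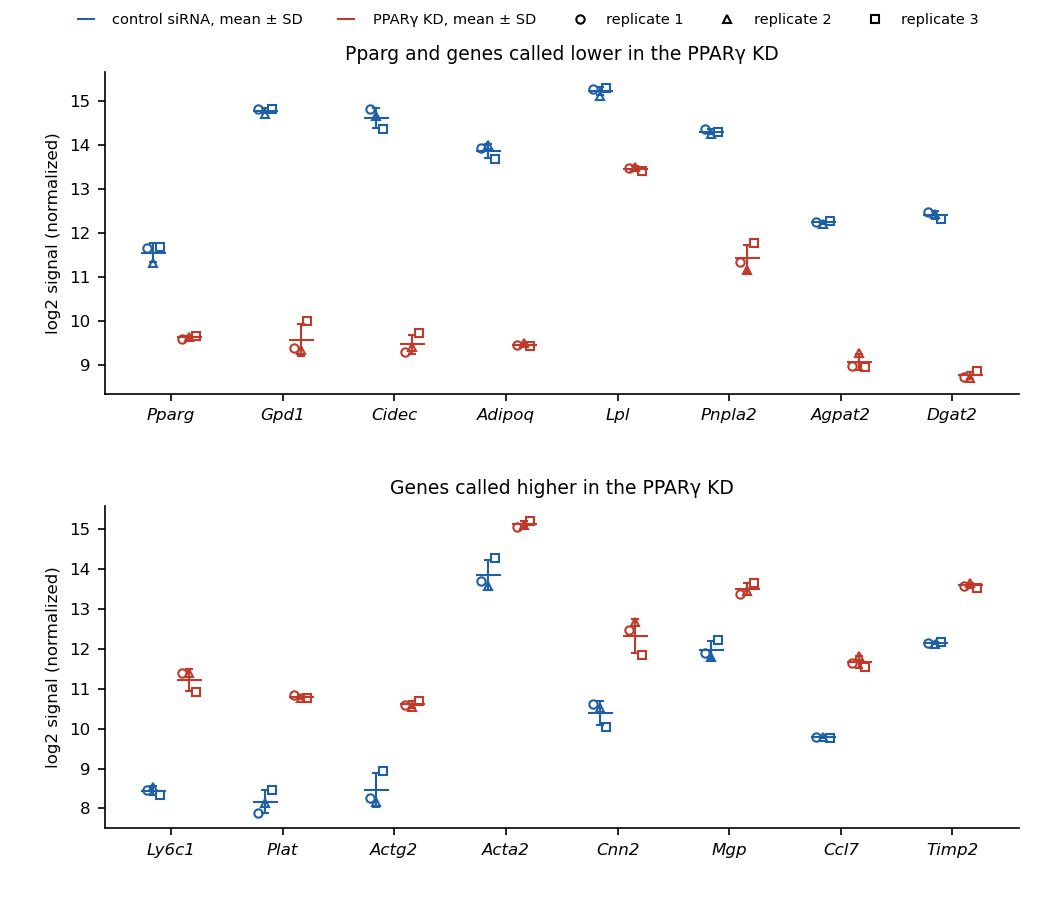
Normalized log2 signal of 16 genes on each of the 6 day 2 arrays, control siRNA in blue and PPARγ KD in red, with a symbol per replicate and the mean ± SD of 3 arrays. In each of these genes the 3 PPARγ KD arrays lie wholly on 1 side of the 3 control siRNA arrays. The 16 genes are a selection, so this separation does not describe the array as a whole. Pparg itself differs less than Gpd1, Cidec and Adipoq.

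The receptor partners and transcription factors of adipogenesis changed unequally. Of 8 genes of PPARγ and its partners, 3 were lower and 0 higher. Besides Pparg these were Rxra, the usual heterodimer partner, at 9.18, 9.09 and 9.15 under control siRNA against 8.06, 8.11 and 8.31 in the PPARγ KD (−0.98, SE 0.11, adjusted p = 1.31e-06), and Nr1h3, which encodes the oxysterol receptor LXRα. Nr1h3 was at 9.85, 9.83 and 9.77 under control siRNA and at 7.42, 7.21 and 7.50 in the PPARγ KD (−2.44, SE 0.13, adjusted p = 1.17e-15). Rxrb differed by −0.42 and was not called (adjusted p = 0.0518).

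Of 16 adipogenic transcription factors, 5 were lower and 0 higher. Cebpa was at 8.36, 8.15 and 8.47 under control siRNA and not above background on any PPARγ KD array, so that it was at least 3.62-fold lower (adjusted p = 2.57e-17). Its early relatives were not called, although for Cebpb all PPARγ KD arrays lay below all control siRNA arrays. A missed threshold does not show that a gene was unchanged. Cebpb was at 13.26, 13.05 and 12.98 against 12.74, 12.71 and 12.73 (−0.37, adjusted p = 0.526), and Cebpd at 10.76, 10.89 and 10.26 against 10.98, 10.82 and 10.70 (0.20, adjusted p = 1). Ebf2 (−1.81), Zfp423 (−1.40), Stat5a (−0.93) and Xbp1 (−0.81) were the other members called, and the first 2 of these were above background on 1 of 3 PPARγ KD arrays. Of 13 coregulators, only the PGC-1 pair was called. Ppargc1b was at least 5.42-fold lower, and Ppargc1a, which drives mitochondrial genes with nuclear receptors, was at 8.73, 8.84 and 9.66 against 6.92, 6.81 and 7.88 (−1.87, SE 0.16, adjusted p = 1.48e-09).

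Of 9 lipid droplet proteins, 5 were lower and 1 higher, with a list median of −0.98. The perilipins did not move together. Plin1, Plin4 (−1.69, adjusted p = 5.35e-17) and Plin2 (−1.21, adjusted p = 3.30e-14) were induced by PPARγ, while Plin3, a perilipin of most tissues, was at 9.92, 9.76 and 9.53 under control siRNA and at 10.84, 10.98 and 10.57 in the PPARγ KD (1.06, SE 0.09, adjusted p = 8.71e-10). Bscl2, which encodes seipin, a protein of droplet formation at the endoplasmic reticulum, differed by −0.98.

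Of 15 genes of triglyceride synthesis and glyceroneogenesis, 7 were lower and 0 higher (median −0.56). Agpat2, an acyltransferase of the second step, differed by −3.17, and Dgat1 and Dgat2, of the last step, by −2.60 and −3.64. Each of these had an SE between 0.09 and 0.13. Its relatives did not fall with Agpat2, as Agpat1 (0.12) and Agpat3 (0.02) were above background on all 6 arrays and not called. Agpat2 was at 12.25, 12.22 and 12.29 under control siRNA against 9.0, 9.29 and 8.96. Gpat3, an acyltransferase of the first step that the list does not hold, fell by 3.74 (SE 0.16, adjusted p = 4.31e-19). Aqp7, a glycerol channel, was at least 3.01-fold lower. Pck1, the textbook enzyme of glyceroneogenesis, was above background on 0 of 6 arrays.

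Of 9 genes of lipolysis, 5 were lower and 0 higher, with a median of −1.52. Pnpla2, the lipase that starts triglyceride breakdown, was at 14.37, 14.26 and 14.31 under control siRNA and at 11.35, 11.17 and 11.78 in the PPARγ KD (−2.88, SE 0.16, adjusted p = 8.71e-16). Its activator and its inhibitor were both lower, with differences of −1.52 for Abhd5 and −3.81 for G0s2. Lipe, the hormone-sensitive lipase, differed by −2.91 (adjusted p = 1.02e-16) and was above background on 2 PPARγ KD arrays. Mgll, the last lipase of the path, differed by −0.68 and was not called (adjusted p = 1).

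For the supply of fatty acids, 3 of 11 genes of uptake, binding and activation were lower and 0 higher. Acsl1, which activates fatty acids to acyl-CoA, fell by 4.58 (23.9-fold, SE 0.16, adjusted p = 7.90e-23), Lpl, the lipase that frees fatty acids outside the cell, by 1.77 (adjusted p = 4.46e-15) and Fabp5 by 2.34 (adjusted p = 2.78e-11). The probe for Fabp4 was at 9.52, 7.63 and 6.60 under control siRNA and at 5.92, 5.40 and 5.89 in the PPARγ KD, where it was not above background. This probe was wide apart between the control siRNA replicates and was not called (adjusted p = 1).

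Of 15 genes of fatty acid synthesis, 4 were lower, 0 higher and the median was −0.18. Fasn, the synthase itself, differed by −0.52 (SE 0.09, adjusted p = 0.0123, a call that was lost with quantile normalization and without background correction) and Scd1, the desaturase, by −1.06 (SE 0.12, adjusted p = 5.64e-06). Acaca, the carboxylase of the first step, differed by 0.34 and was not called. Thrsp, a lipogenic regulator of the cytosol, was at least 4.63-fold lower. Of 9 genes of cytosolic NADPH supply, Taldo1 (−1.17) and Rpia (−0.89) of the non-oxidative pentose phosphate path were lower, while the dehydrogenases G6pdx (−0.63, adjusted p = 0.0974) and Pgd (−0.41, adjusted p = 1) were not called.

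Among 15 adipokines and secreted adipocyte proteins, 5 were lower and 0 higher. Adipoq, which encodes adiponectin, had a mean of 13.88 over 3 control siRNA arrays and was at 9.47, 9.50 and 9.44 in the PPARγ KD, a 21.2-fold fall (SE 0.23 on the log2 scale, adjusted p = 1.11e-16). The 3 PPARγ KD arrays lay close together and far below the control siRNA arrays. Cfd, adipsin, was at least 5.89-fold lower and Retn, resistin, at least 1.55-fold. Agt, which encodes angiotensinogen, fell by 2.38 and Angptl4, an inhibitor of lipoprotein lipase, by 1.44.

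Of 10 adipocyte G-protein-coupled receptors and MRAP, 5 were lower and 2 higher. Among the lower members, Hcar1 (−1.52) was above background on 0 of 6 arrays. Ffar2, a receptor for short-chain fatty acids, was at least 6.21-fold lower, and Hcar2, the niacin receptor, at least 2.41-fold. Mc2r, the ACTH receptor that needs Mrap, differed by −1.55 (adjusted p = 5.37e-05) with signals above background on 2 control siRNA arrays and 0 PPARγ KD arrays. Npy1r, a receptor for neuropeptide Y, was at least 2.98-fold higher in the PPARγ KD, and EDG2, a lysophosphatidic acid receptor, was higher by 1.25 (SE 0.10, adjusted p = 3.63e-10). In insulin signalling and glucose transport, 5 of 14 genes were lower and 0 higher. Slc2a4, which encodes the insulin-responsive glucose transporter GLUT4, was at least 2.21-fold lower, the insulin receptor gene Insr differed by −0.84 (adjusted p = 4.66e-06) and the glycogen synthase gene Gys1 by −1.05 (adjusted p = 2.18e-06).

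The lists of mitochondrial genes held many calls, nearly all of them lower, with medians smaller in size than that of the lipid droplet proteins. Lower and higher calls numbered 10 and 0 of 19 in mitochondrial fatty acid oxidation, 13 and 1 of 25 in the pyruvate dehydrogenase complex and TCA cycle, 22 and 0 of 62 among oxidative phosphorylation subunits, and 34 and 0 of 73 among mitochondrial ribosomal proteins. The medians of these lists were −0.66, −0.52, −0.41 and −0.51. In a fit without the replicate block the lower calls were 4, 5, 12 and 14. Cycs, cytochrome c, was at 13.83, 13.85 and 13.80 under control siRNA and at 12.23, 12.21 and 12.06 in the PPARγ KD (−1.66, SE 0.08, adjusted p = 5.39e-17). Idh3a, a subunit of isocitrate dehydrogenase, differed by −1.57 (SE 0.08, adjusted p = 3.69e-17), and Acadm, the medium-chain acyl-CoA dehydrogenase, by −1.47 (SE 0.13, adjusted p = 1.44e-09). Cox7a1, a muscle and brown fat isoform of a cytochrome c oxidase subunit, was at least 2.11-fold lower.

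The mitochondrial ribosome was set against the cytosolic one. The largest difference among mitochondrial ribosomal proteins was that of Mrpl12, at 13.71, 13.54 and 13.46 under control siRNA against 12.30, 12.54 and 12.28 in the PPARγ KD (−1.19, SE 0.10, adjusted p = 2.96e-10). Of 39 cytosolic ribosomal proteins 2 were lower and 0 higher, with a median of −0.08; these were Rps19 (−1.51) and Rpl29 (−0.78), whose probes can share sequence with processed pseudogenes. The difference between the lists was not tested. Many cytosolic members lay near the top of the signal range, where the highest deposited intensity on the 48 arrays was 67066.3. The members called were dimmer, with control siRNA means of 9.32 for Rps19 and 7.76 for Rpl29. Whether the top of the range narrowed the differences of the bright members was not tested. The element of NRF1, a regulator of mitochondrial genes, read as GCGCA, any base and GCGC without departures on both strands, was in the promoter windows (described further on) of 4.23% of all genes, 9.19% of genes called lower, 6.47% of those not called and 5.18% of those called higher, but in 3 of 30 windows of mitochondrial ribosomal genes called lower and 6 of 34 of those not called. Of 32 proteasome subunits, 2 were lower, with a median of −0.24. Pdk4, a kinase that switches pyruvate dehydrogenase off, was the member of the pyruvate dehydrogenase list that rose, from 9.90, 9.81 and 9.64 to 10.77, 10.67 and 10.23 (0.77, SE 0.13, adjusted p = 0.00925).

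Of 20 peroxisomal genes, 8 were lower and 0 higher. Pex11a, which promotes the division of peroxisomes, was at 11.72, 11.72 and 11.70 under control siRNA and at 9.39, 9.29 and 9.80 in the PPARγ KD (−2.22, SE 0.12, adjusted p = 2.21e-16). Of 20 genes of branched-chain amino acid catabolism, 6 were lower and 0 higher, led by Bcat2 (−1.65, adjusted p = 1.69e-12), the mitochondrial transaminase. Antioxidant enzymes were mixed, with 6 of 27 lower and 3 higher. The members that were lower included the mitochondrial enzymes Sod2 (−0.73) and Prdx3 (−1.06), and the 3 that were higher were the glutathione transferases Gstm1 (0.56), Gstm2 (0.71) and Gstt1 (0.73). Near-identical members of the Gstm family can share hybridization.

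Glycolysis had 5 of 17 genes lower and 1 higher. Pfkfb3, which makes the activator of phosphofructokinase, fell by 1.95 (SE 0.09, adjusted p = 6.03e-19), Aldoa by 1.28 and Pfkl by 1.26. Eno3, the muscle enolase, was higher by 0.65 (SE 0.09). In cholesterol synthesis, 3 of 21 genes were lower. Insig1, the brake on sterol sensing, fell by 1.34 and Dhcr7 by 1.26. Of 25 genes of endoplasmic reticulum folding, 3 were lower and 0 higher, with a median of −0.10.

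**Figure D3:**
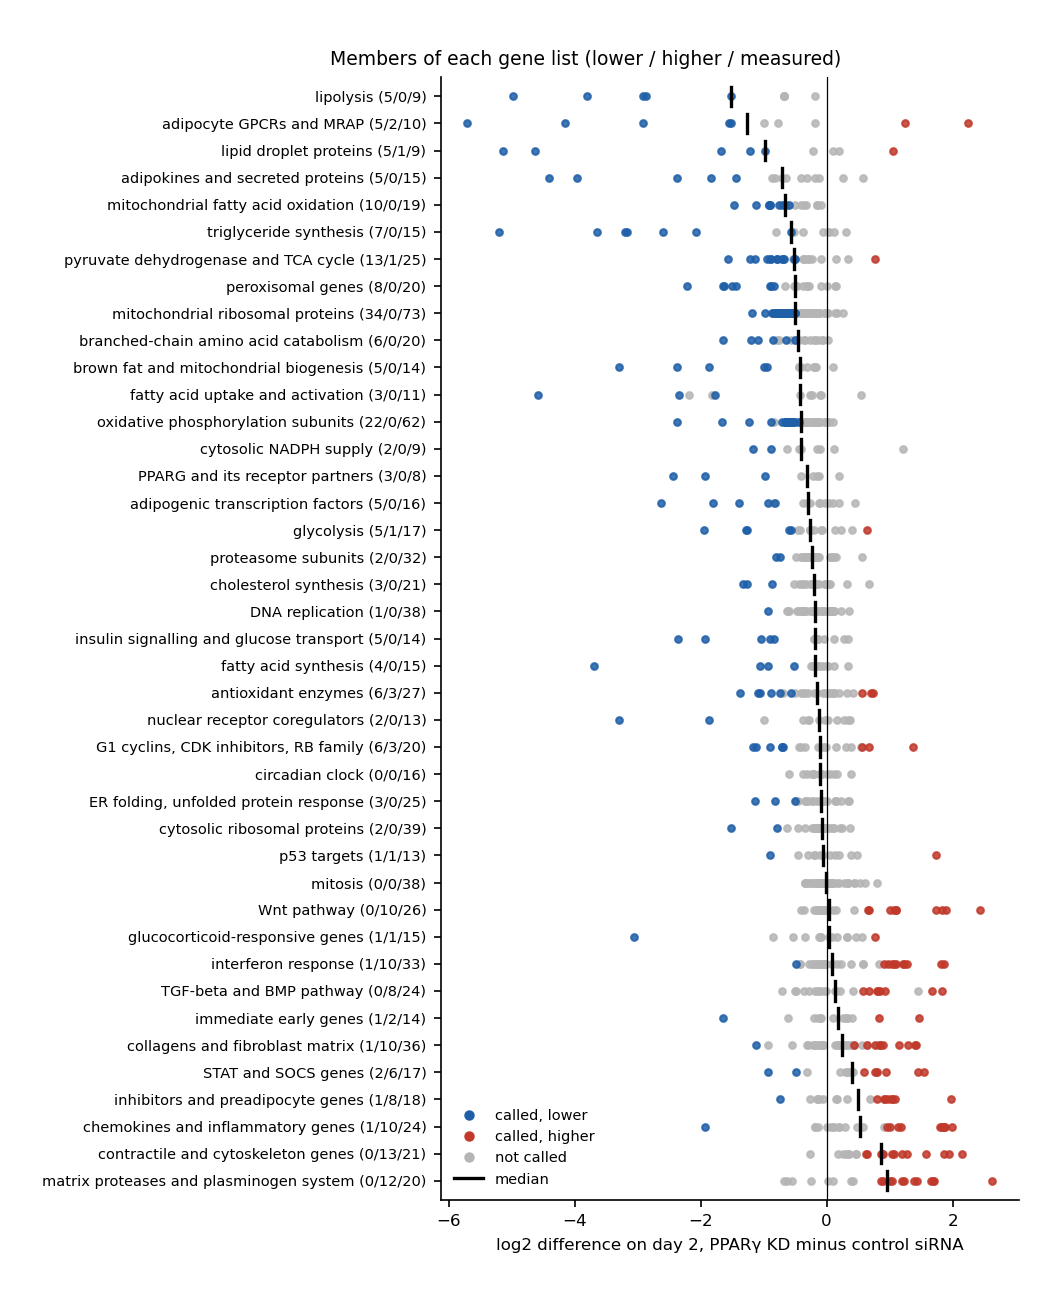
Log2 difference on day 2 of each member of 41 gene lists (horizontal axis), ordered by the list's median (black bar), with members called lower in blue, called higher in red and not called in grey. The numbers beside each name are the members called lower, called higher and measured; the medians run from −1.52 for lipolysis to 0.95 for matrix proteases and the plasminogen system.

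Genes of DNA replication and mitosis showed few calls. Of 38 genes of DNA replication, 1 was lower, Cdc45 (−0.93, adjusted p = 0.0339), and of 38 genes of mitosis 0 were called in either direction by limma with Bonferroni correction; at an unadjusted p under 0.05 they were 4 lower and 9 higher, and with Benjamini-Hochberg correction 2 lower and 7 higher. Of 20 G1 genes, 6 were lower and 3 higher. Ccne2, cyclin E2, was at 7.58, 7.70 and 7.97 under control siRNA and at 6.28, 6.56 and 7.06 in the PPARγ KD (−1.12, SE 0.14, adjusted p = 2.39e-05), and E2f2 was at least 1.76-fold lower. The CDK inhibitors went opposite ways. Cdkn1a, p21, fell by 0.91 (SE 0.08, adjusted p = 1.47e-09) and Cdkn2b, p15, rose by 1.37 (SE 0.09, adjusted p = 2.19e-13), and Cdkn2a also rose (0.57, adjusted p = 0.0115), though its second probe differed by 0.34 and was not called. Ccnd1, cyclin D1, rose by 0.67 (SE 0.07, adjusted p = 1.08e-07), while Myc was at least 2.44-fold lower.

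The genes repressed by PPARγ on day 2 included many of the fibroblast state and of secreted signals. Among genes above background on all 6 arrays, the 10 largest rises were those of Ly6c1, Plat, Mfap5, Actg2, Plac8, Ccl9, Ly6a, Wfdc3, Aldh3a1 and Cnn2, with differences from 2.78 to 1.94. Ly6c1, a surface antigen, was at 8.47, 8.55 and 8.33 under control siRNA and at 11.38, 11.39 and 10.91 in the PPARγ KD, a 6.86-fold rise (SE 0.11 on the log2 scale, adjusted p = 3.64e-20). Plat, tissue plasminogen activator, was at 7.90, 8.13 and 8.47 against 10.85, 10.76 and 10.77, a 6.19-fold rise (SE 0.10 on the log2 scale, adjusted p = 1.14e-20). Ly6 genes are near-identical to each other, so that Ly6c1 and Ly6a may share hybridization with relatives.

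Among genes above background in the PPARγ KD alone, the highest bounds were at least 3.96-fold for BC064033, 3.73-fold for Wnt6, 3.47-fold for Depp1, 3.3-fold for Rasgrp3 and 2.98-fold for Npy1r. Wnt6, a Wnt ligand that holds preadipocytes back from differentiation, was at 8.40, 8.27 and 8.88 in the PPARγ KD (adjusted p = 9.83e-20). These bounds were smaller than those of the 5 induced genes above, which were at least 11.9-fold.

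Of 21 contractile and cytoskeleton genes, 13 were higher and 0 lower, with a median of 0.86, against 13.5% called higher among the brightest symbols. Acta2, smooth muscle α-actin, was at 13.69, 13.57 and 14.27 under control siRNA and at 15.06, 15.10 and 15.20 in the PPARγ KD (1.28, SE 0.13, adjusted p = 2.44e-07). Actg2, smooth muscle γ-actin, was at 8.27, 8.16 and 8.94 against 10.60, 10.53 and 10.70 (2.16, SE 0.11, adjusted p = 3.22e-16). Calponin 2, Cnn2, rose by 1.94, the myosin light chain gene Myl9 by 1.86 and Tpm1, a tropomyosin, by 1.58. Srf, the transcription factor of many actin and myosin genes, rose by 0.64. Tagln and Cnn1 were above background on 0 of 6 arrays. Without the replicate block, 8 of the 21 genes were called higher.

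SRF binds the CArG box, and the promoters of the contractile genes were therefore searched for it. Promoter windows are the 250 bases before the start of each gene in RefSeq (GRCm38.p6), which 27025 gene symbols had, and motifs were searched on both strands. An exact CArG box was in the windows of 1.62% of all these genes, and in 3 of 12 windows of contractile genes called higher (Cnn2, Myl9 and Srf), against 1 of 6 windows of contractile genes not called. The windows of Cnn2 and Myl9 are shown with the box in capitals, as members that rose and carry it, up to the first annotated base of the gene, in the direction of transcription.
Cnn2, chr10:79988350-79988599, plus strand: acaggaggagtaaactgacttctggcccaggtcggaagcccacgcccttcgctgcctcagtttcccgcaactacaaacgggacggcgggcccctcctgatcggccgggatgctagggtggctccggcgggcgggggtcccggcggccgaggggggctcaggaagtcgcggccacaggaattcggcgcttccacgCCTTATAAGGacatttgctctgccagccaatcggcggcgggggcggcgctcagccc
Myl9, chr2:156775214-156775407, plus strand: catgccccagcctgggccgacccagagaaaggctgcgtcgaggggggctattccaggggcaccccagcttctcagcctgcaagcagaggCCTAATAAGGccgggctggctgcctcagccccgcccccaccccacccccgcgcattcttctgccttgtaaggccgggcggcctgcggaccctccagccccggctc
These matches are letters in a window and not measured sites. No box in a window says only that these letters are not there.

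Of 20 matrix proteases and plasminogen system genes, 12 were higher and 0 lower, with a median of 0.95. Timp2, an inhibitor of matrix metalloproteinases, was at 12.14, 12.13 and 12.18 under control siRNA and at 13.58, 13.65 and 13.53 in the PPARγ KD (1.44, SE 0.07, adjusted p = 2.76e-17). Timp3 rose by 1.71, and Mmp3 and Mmp9 were at least 2.89-fold and 2.56-fold higher, so that proteases and their inhibitors rose together. Of 36 collagen and matrix genes, 10 were higher and 1 lower, with a median of 0.24. Fn1, fibronectin, rose by 1.42 (SE 0.10, adjusted p = 1.94e-12), Dpt, dermatopontin, by 1.40 and Fbn1, fibrillin, by 1.29. The main fibrillar chains moved less, with Col1a1 at 0.34 (adjusted p = 1), Col1a2 at 0.64 (adjusted p = 0.0894) and Col3a1 at 0.90 (adjusted p = 0.0463).

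Of 18 inhibitors of adipogenesis and preadipocyte genes, 8 were higher and 1 lower, with a median of 0.51. Dlk1, which encodes Pref-1, the classic preadipocyte antigen, was at 12.54, 12.51 and 12.71 under control siRNA and at 13.37, 13.27 and 13.87 in the PPARγ KD (0.92, SE 0.09, adjusted p = 5.93e-08). Gata2 rose by 1.08 and Klf2 by 1.03, both transcription factors that repress Pparg, while Foxo1 fell by 0.73 (adjusted p = 0.0283). Of 26 Wnt pathway genes, 10 were higher and 0 lower, while the list median was 0.04 and 11 members were above background on 0 of 6 arrays. Besides Wnt6, the rises included the Wnt antagonist Sfrp2 (1.90) and the Wnt-induced secreted proteins Ccn5 (1.83, SE 0.13) and Ccn4 (1.74, SE 0.09). Of 24 TGF-β and BMP pathway genes, 8 were higher and 0 lower. Grem1, a BMP antagonist, was at 7.48, 7.80 and 8.21 against 9.57, 9.43 and 9.99 (1.83, SE 0.12, adjusted p = 5.59e-13), and Ltbp1, which holds latent TGF-β in the matrix, rose by 1.67.

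Of 24 chemokines and inflammatory genes, 10 were higher and 1 lower. Ccl7, a chemokine, was at 9.79, 9.79 and 9.77 under control siRNA and at 11.64, 11.82 and 11.53 in the PPARγ KD, a 3.68-fold rise (SE 0.10 on the log2 scale, adjusted p = 2.21e-16). Ccl9 rose by 1.98, Csf1, the growth factor of macrophages, by 1.86 and Il1rl1, the interleukin 33 receptor, by 1.84, while Ccl2 was at least 2.29-fold higher. The member that fell was Hp, haptoglobin, a secreted protein of adipocytes and liver (−1.93, SE 0.14, adjusted p = 5.76e-12). Of 17 STAT and SOCS genes, 6 were higher and 2 lower. Among receptors of the interleukin 6 family, Osmr rose by 1.46 (SE 0.12). Il6st was called with a difference of 1.54, but it was above background on 0 control siRNA arrays and 2 PPARγ KD arrays. Lifr was above background on 0 of 6 arrays and was not called. The feedback gene Socs3 rose by 0.94 (SE 0.12, adjusted p = 3.29e-05).

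Of 33 interferon response genes, 10 were higher and 1 lower. Bst2, tetherin, was at 9.08, 9.18 and 9.56 against 11.24, 11.22 and 10.96 (1.87, SE 0.15, adjusted p = 2.45e-10), and Lgals9, galectin 9, was at 8.01, 8.06 and 7.84 against 9.97, 9.89 and 9.48 (1.81, SE 0.09, adjusted p = 3.66e-17). Irf9 rose by 1.28 and Stat2 by 1.21. The core of the interferon-stimulated response element, GAAA and again GAAA with any 2 bases between, was in the promoter windows of 3.46% of all genes, in 4 of 7 windows of interferon genes called higher, and in 5 of 17 windows of those not called. The windows of Bst2 and Lgals9 are shown with the core in capitals (a pair of overlapping matches in Bst2, and in Lgals9 a match on the other strand), as the pair that rose most in this list.
Bst2, chr8:71537473-71537722, minus strand: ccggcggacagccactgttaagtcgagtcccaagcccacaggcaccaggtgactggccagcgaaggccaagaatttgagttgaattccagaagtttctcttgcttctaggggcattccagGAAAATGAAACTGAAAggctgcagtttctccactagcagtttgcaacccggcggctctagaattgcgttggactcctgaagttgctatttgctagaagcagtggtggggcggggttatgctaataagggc
Lgals9, chr11:78984925-78985174, minus strand: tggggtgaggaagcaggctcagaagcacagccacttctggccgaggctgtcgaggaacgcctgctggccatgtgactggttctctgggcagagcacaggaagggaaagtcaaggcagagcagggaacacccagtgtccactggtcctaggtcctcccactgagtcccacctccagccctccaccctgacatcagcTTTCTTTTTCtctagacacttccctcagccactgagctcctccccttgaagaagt

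The element of PPARγ and RXR is a direct repeat, AGGTCA and again AGGTCA with any 1 base between, and it was searched with up to 2 departures from these letters. It was in the windows of 3.72% of all genes. Among genes with a window, it was in 3.22% of the 653 called lower and 2.53% of the 791 called higher. These windows did not set the called genes apart, and sequence beyond them was not searched. The study measured binding, and reports sites near the gene start more often for induced genes, but not for repressed ones. Of 64 genes read here that the study lists with a site for both PPARγ and RXR, 44 were called lower and 3 higher. The study used the expression data of these samples as well, so these directions are not independent evidence. Sucla2, a subunit of the TCA cycle's succinyl-CoA synthetase, differed by −0.91 (adjusted p = 0.0306, a call lost with quantile normalization). Plin2 and Sucla2 are members of the gene lists above that were called lower and carried the element. Their windows are shown with the match in capitals, Plin2 up to the first annotated base of the gene and with the match on the other strand.
Plin2, chr4:86670218-86670309, minus strand: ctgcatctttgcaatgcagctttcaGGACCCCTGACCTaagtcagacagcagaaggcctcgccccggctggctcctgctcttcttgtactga
Sucla2, chr14:73552536-73552785, plus strand: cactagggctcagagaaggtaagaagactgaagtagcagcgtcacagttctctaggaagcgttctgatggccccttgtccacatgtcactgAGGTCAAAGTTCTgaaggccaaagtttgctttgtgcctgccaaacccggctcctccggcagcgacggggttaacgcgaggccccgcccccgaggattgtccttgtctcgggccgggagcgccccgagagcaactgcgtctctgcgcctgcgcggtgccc

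Markers of cell types were read from lists. The summed linear signal of 9 adipocyte markers lay between 37030 and 48390 on the control siRNA arrays. On the PPARγ KD arrays it lay between 1676 and 1928. Of these markers 6 were lower and 0 higher, and Lep and Pck1 were at background on all 6 arrays. Most of the sum under control siRNA came from Cidec and Adipoq, both among the 10 largest falls. They were the only 2 of these markers above background on all 6 arrays. The summed signal of 10 fibroblast and preadipocyte markers lay between 83990 and 88470 under control siRNA. In the PPARγ KD it lay between 122000 and 124400, with 5 members higher and 0 lower. All 10 of these were above background on all 6 arrays, so that the control siRNA cultures of day 2 held fibroblast and adipocyte transcripts side by side. Markers of endothelium, skeletal muscle, osteoblasts and epithelium were above background on 0 of 6 arrays. Of 5 chondrocyte markers, Acan, the cartilage proteoglycan aggrecan, was above background on all 6 arrays and was not called (−0.37, adjusted p = 1), and the other 4 were above background on 0. Of 9 macrophage markers 7 were above background on 0 of 6 arrays, among them Adgre1, Cd68 and Csf1r, while Lyz2 and Cd14 were at least 1.55-fold and 1.62-fold higher in the PPARγ KD.

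Day 2 had the most calls of the time course, 2195 against 212 to 956 on each of the other 7 days. A test of the difference was therefore made between the siRNA effect on day 2 and the mean of the effects on the neighbouring days 1 and 3, which share no arrays with it. The effect differed for 596 probes under 556 symbols, 2.42% of all probes, of which 208 were more negative and 388 more positive on day 2. Of the 596, 550 were also called on day 2 itself. The fall was larger on day 2 for 197 of these, the rise was larger for 351 and the fall was smaller for 2. Without replicate 1, 2 or 3 the count of 596 became 94, 91 or 389.

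Which siRNA's cells set day 2 apart was read from day 2 minus the mean of days 1 and 3 within each siRNA. Under control siRNA 1549 probes were called in that contrast (6.29% of all probes) and in the PPARγ KD 398 (1.62%). Among the 596 probes, 461 were called under control siRNA and not in the PPARγ KD, 40 the other way round, 34 in both and 61 in neither, and the departure of day 2 was larger under control siRNA for 529 of them. The arrays of a day may also share a handling step that the labels do not give, and its part in these counts was not tested.

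**Figure D4:**
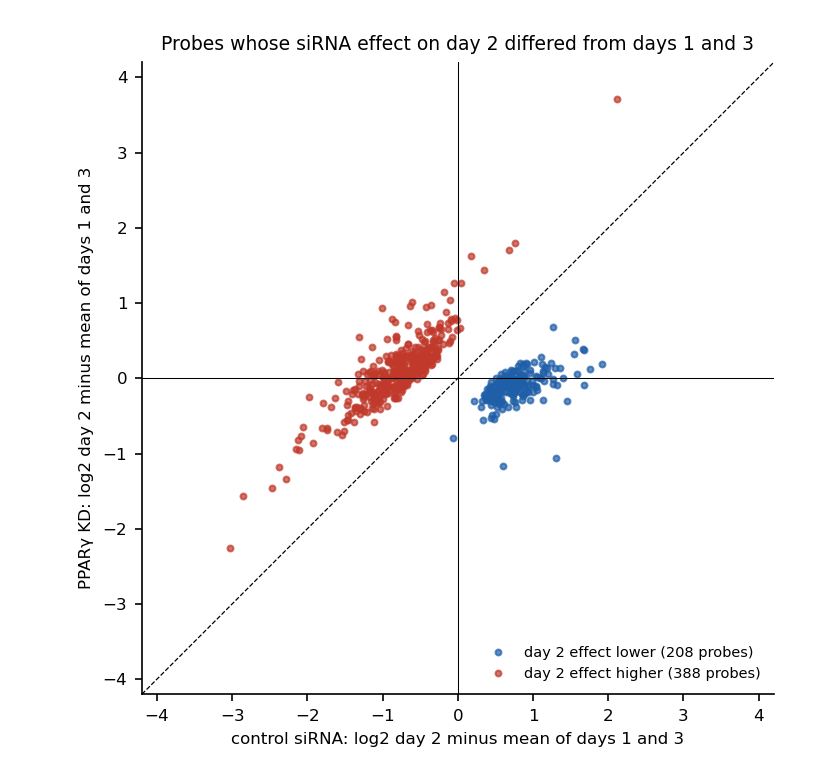
Departure of day 2 from the mean of days 1 and 3 (log2), under control siRNA on the horizontal axis and in the PPARγ KD on the vertical axis, for the 596 probes whose siRNA effect differed, with points on the dashed line moving equally. The points spread mainly along the horizontal axis, and 529 of them departed more under control siRNA than in the PPARγ KD.

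The genes with the largest changes of this kind, among those above background on all 6 day 2 arrays, included peaks and troughs of the control siRNA cells. Agpat2 had a mean of 10.15 on day 1, 12.25 on day 2 and 11.27 on day 3 under control siRNA, and of 8.82, 9.08 and 8.69 in the PPARγ KD. Its siRNA effect was −3.17 on day 2 against −1.33 and −2.59 on days 1 and 3 (difference −1.21, adjusted p = 6.13e-07). Pla2g12a, a secreted phospholipase A2, peaked likewise under control siRNA, at 10.36, 11.76 and 10.89, while the PPARγ KD stayed at 9.73, 9.73 and 9.80 (difference −1.17, adjusted p = 2.15e-07). The other genes with the most negative differences were Ankrd37 (−1.63), LOC100047934 (−1.35) and Noct (−1.19), a rhythmic deadenylase-like protein also known as nocturnin.

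Troughs were seen in secreted and matrix genes. Mgp, matrix Gla protein, was at 12.79 on day 1, 11.97 on day 2 and 13.72 on day 3 under control siRNA and at 12.90, 13.48 and 13.55 in the PPARγ KD, so that its siRNA effect was 1.51 on day 2 but 0.11 and −0.17 on days 1 and 3 (difference 1.55, adjusted p = 4.06e-13). Prss23, a secreted serine protease, dipped from 8.62 to 7.11 and returned to 9.19 under control siRNA, while the PPARγ KD stayed at 9.17, 8.88 and 9.25 (difference 1.46, adjusted p = 1.57e-07). Id4, an inhibitor of basic helix-loop-helix factors, and Wfdc3 had differences of 1.59 and 1.63, and in both the PPARγ KD was higher on day 2 than the mean of its days 1 and 3. BC055107 was not called on day 2 (−0.43, adjusted p = 1), although it differed by −1.87 on day 1 and was above background on 3 control siRNA and 0 PPARγ KD arrays on day 3 (fitted difference 1.6, adjusted p = 0.0352).

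Members of several lists were among these genes. Of 21 contractile genes, 8 had a more positive effect on day 2 than on days 1 and 3. All 8 were also called higher on day 2, and of all 1166 probes called higher on day 2, 351 had a larger rise on that day; over all symbols the share with a more positive effect was 1.88%. For Acta2 the effect was 1.28 on day 2 but 0.27 and −0.14 on days 1 and 3 (difference 1.21, adjusted p = 0.000146), and under control siRNA Acta2 departed by −1.41 on day 2 from the mean of days 1 and 3. For Actg2 that departure was −2.85 with control siRNA but −1.56 in the PPARγ KD. More positive effects were also counted for 7 matrix and collagen genes, 7 proteases, 6 chemokines and inflammatory genes, 5 TGF-β and BMP pathway genes and 4 Wnt pathway genes. More negative effects were counted for 2 of 15 genes of triglyceride synthesis (Agpat2 and Dgat1), 1 of 9 lipid droplet proteins (beside 2 more positive ones) and 0 of 9 genes of lipolysis, where the share of all symbols was 0.939%. The G1 list had 4 more negative effects, among them Ccne2 (−1.09), E2f2 (−1.23) and Cdkn1a (−0.67).

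**Figure D5:**
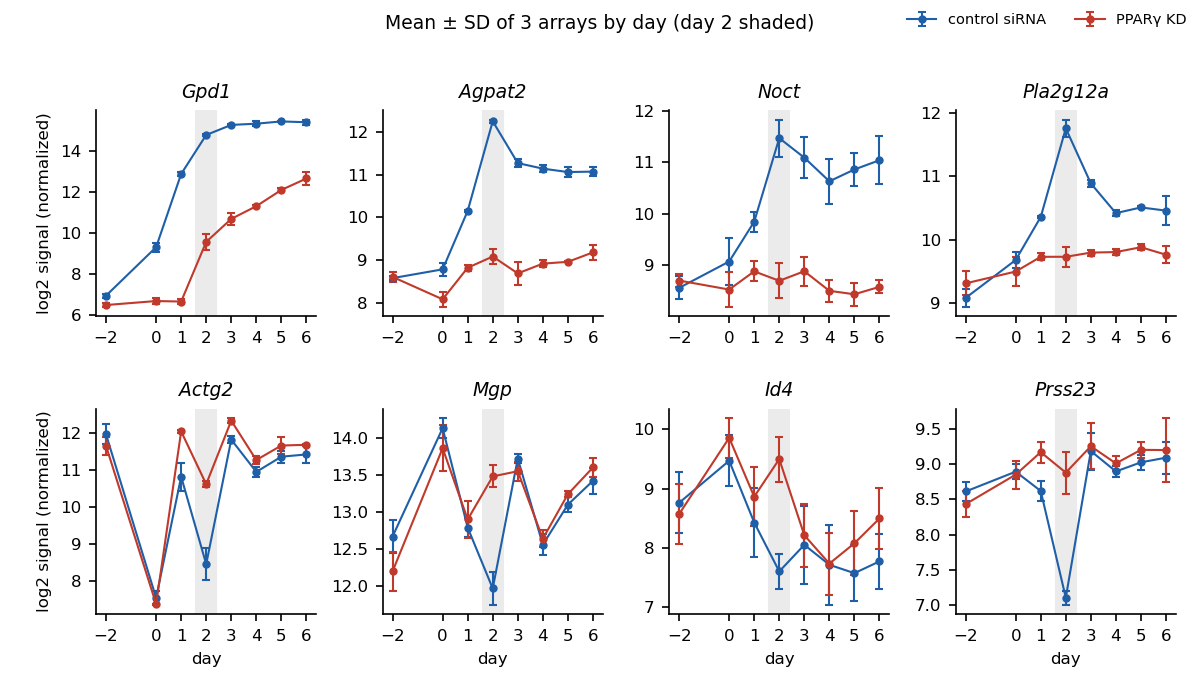
Mean log2 signal ± SD of 3 arrays by day for 8 genes, control siRNA in blue and PPARγ KD in red, with day 2 shaded. Agpat2 and Pla2g12a peak and Mgp, Prss23 and Actg2 dip on day 2 under control siRNA, while Gpd1 differs between the siRNAs on day 2 and on both neighbouring days.

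The largest falls were also present on the neighbouring days. The effect on Gpd1 was −6.22 on day 1 (above background on 2 of 3 PPARγ KD arrays), −5.21 on day 2 and −4.58 on day 3, and its day 2 value did not pass the test of the difference (0.19, adjusted p = 1). The effect was −4.41 on day 2 and −4.47 on day 3 for Adipoq, and −5.14 and −5.46 for Cidec, and neither gene was above background on any PPARγ KD array of day 1. A p that misses the threshold does not show that the effects were equal. In the PPARγ KD Gpd1 was at 6.67 on day 1 and 9.58 on day 2, and under control siRNA at 12.89 and 14.79, so that it rose between these days under both siRNAs. Mrap was not above background on any PPARγ KD array of days 1, 2 or 3.

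Some short lists had small counts of calls on day 2, beside 4.49% of all symbols called lower and 5.59% called higher. Apart from the circadian clock list, their shares were not below those of all symbols. Of 16 circadian clock genes, 0 were called by limma with Bonferroni correction, 5 were lower and 1 higher at an unadjusted p under 0.05, and 3 were lower and 1 higher with Benjamini-Hochberg correction. Of 15 glucocorticoid-responsive genes, Hsd11b1 was lower and Pdk4 higher, while Tsc22d3 (0.56) and Per1 (0.16) were not called, each with adjusted p = 1. Of 13 p53 targets, Cdkn1a was lower and Plk2, a polo-like kinase, higher (1.74, SE 0.12, adjusted p = 5.32e-12). Of 14 immediate early genes, Fosl2 (1.46) and Jun (0.83) were higher and Myc was lower.

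Some genes that the study silenced one at a time to follow lipid accumulation were read here as well. The kinases Pim3 and Mknk2 differed by −1.78 (SE 0.08, adjusted p = 4.73e-19) and −0.81 (SE 0.09, adjusted p = 4.85e-07). Pdzrn3, a ubiquitin ligase, was at 7.72, 7.55 and 5.67 under control siRNA and at 9.18, 9.57 and 7.28 in the PPARγ KD (1.70, SE 0.15, adjusted p = 2.62e-09). Both replicate 3 arrays were low for Pdzrn3, and the PPARγ KD array was the higher of the pair in each replicate. The study chose these genes with the expression data of these samples at hand, so their directions are not independent evidence.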

How the data were processed

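The values that the authors deposited are bead intensities (the mean over the beads of a probe, from BeadStudio 3.3.7, not normalized) and, beside each, a detection score given as a fraction, whose complement is the detection p-value. Background correction used these p-values (limma 3.58.1 under R 4.3.3, normexp, offset 16). Arrays were then brought to 1 scale through probes of stable rank (those between 0.5 and 0.9 of the ranked mean signal with rank shifts under 0.05), and log2 values were taken. A single linear model held all 48 arrays, with siRNA and day as groups and replicate as a block (lmFit, eBayes, 30 residual degrees of freedom). The study's methods used a 3-way ANOVA with batch removal, for which limma stands in here. Samples were grouped by their titles. Within day 2 the deviations of same-numbered arrays from their group means correlated at 0.634, 0.717 and 0.879. Control replicate 1 correlated more with PPARγ KD replicate 2, at 0.771, than with PPARγ KD replicate 1. These values set replicate 3 apart but do not pair replicates 1 and 2 by number.

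The comparison and all gene lists were chosen with earlier results of these data known. Named genes are Pparg, the 10 largest changes in each direction above background on 6 arrays, the 5 highest bounds, the 5 largest differences from days 1 and 3 and, from each list, the first 3 members and up to 3 further called members per direction; members not called are named only in part. Srf, Tpm1, Sucla2, Lep, Fbxw5, FIN14, Slpi and Gem lie outside this rule and were named after their values were seen, as were the motifs. Some list members are not reported here. Symbols were updated to RefSeq names where a symbol or a single synonym matched (13869 and 3473 of 18991 file symbols).

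On simulated data over 24613 probes, 86 of 100 probes changed by 1 on the log2 scale and 20 of 100 changed by 0.5 were recovered for day 2, and 74 and 7 for the difference from days 1 and 3, with 0 unchanged probes called. The simulated noise was normal and independent around fitted day and replicate terms, so these counts do not test how well that model holds on the real arrays. The number of arrays limits the precision. Other normalizations, background settings, filters, corrections and blocks, and leaving out each replicate, were tried. Figures were drawn with matplotlib 3.10.9.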

Additional observations from a re-analysis of the deposited data

Results flagged for a closer look

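The siRNA effect on day 2 differed from the mean of its effects on days 1 and 3, in a test of that difference, for 596 probes. Among genes above background on all 6 day 2 arrays, the effect was more negative on day 2 for Ankrd37 by −1.63, LOC100047934 by −1.35, Agpat2 by −1.21, Noct by −1.19 and Pla2g12a by −1.17. It was more positive on day 2 for Wfdc3 by 1.63, BC055107 by 1.6 (a fitted value, with the PPARγ KD at background on day 3), Id4 by 1.59, Mgp by 1.55 and Prss23 by 1.46, all on the log2 scale.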

How the results depend on the processing

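Pparg lay between −2.05 and −1.76 and stayed called in all of them. The count on day 2 became 5957 with Benjamini-Hochberg correction, 1113 without the replicate block, 595 with the day 2 arrays alone, and 989 to 1655 when a replicate was left out. For the difference from days 1 and 3 it became 2810 with Benjamini-Hochberg correction, 198 without the replicate block, 289 with a block within each day, and 91 to 389 when a replicate was left out. For day 2 against days 1 and 3 within control siRNA cells the counts were 4507, 724 without the block and 549 to 1039, and within PPARγ KD cells 1627, 178 without the block and 116 to 280, in the same order. The share of lower probes, 46.9%, passed 50 with Benjamini-Hochberg correction (51.42%), with the day 2 arrays alone (50.42%) and without replicate 2, within a range of 44.11% to 50.48% over the left-out replicates, so which direction held more calls was not stable; it was 49.09% with median scaling and 44.67% without background correction. Adgre1 (0.01585), Cd68 (0.07336) and Csf1r (0.06153), which are at background, changed sign with quantile normalization. Of 165 genes named in the main text, 32 lost their call without the replicate block, 34 with the day 2 arrays alone and 9 to 29 when a replicate was left out. The 165 include genes that were not called in the main fit and so had no call to lose. The cause of these changes was not tested, beyond the fewer arrays in the fits that leave some out. Genes close to background carry only bounds.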

Other observations

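Some probes differed in 1 or 2 pairs alone and were not called. Fbxw5 differed by −5.17 in pair 3 and by −0.50 and −0.52 in pairs 1 and 2. The probe annotated FIN14 differed by 5.86 in pair 2 and by −0.02 and 0.05 in pairs 1 and 3. Slpi, a secreted protease inhibitor, was higher by 2.46 and 2.22 in pairs 1 and 2 and by 0.04 in pair 3, and Gem, a small GTPase, by 2.12 and 2.06 in pairs 1 and 2 against −0.04 in pair 3. Cd36, the fatty acid translocase, differed by −2.42, −2.67 and −0.39 in pairs 1, 2 and 3.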
